A study of Macaca mulatta with 24 samples.

Results

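The E2F proteins and their TFDP partners are the transcription factors that switch on the genes of the G1/S transition and of DNA replication. The 10 genes of the family, E2F1 to E2F8, TFDP1 and TFDP2, were followed in whole blood of rhesus macaques (Macaca mulatta) before and after total body irradiation. Every probe that the array design assigns to 1 of the 10 symbols was taken, whatever its values, which gave 10 of 15049 named genes and 15 of 43603 probes. E2F1, E2F2, E2F3, E2F4, E2F5, E2F6 and E2F8 each had 1 probe, E2F7 and TFDP2 had 2 and TFDP1 had 4.

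RNA was measured on 24 one-colour arrays. The whole body received 1 dose of 4 Gy. There were 7 arrays from before irradiation (labelled day 0, 0 Gy), and after it 4 arrays of day 3, 6 of day 5 and 7 of day 7. All animals were adult wild-type macaques of both sexes and served as their own controls, so that replicate numbers stand for animals and animal 5 has no day 3 or day 5 array. The labels name X-rays as the source, and the study's methods name a cobalt gamma source. Globin RNA was depleted before labelling. Every value below is a normalised signal, the scanner's processed signal on a linear scale after each array was shifted to the median array, and a log2 change is a difference of group means of its log2. Where no array of a group was well above background, such a difference is that of the measured signals alone, and the change itself is given as a bound (at least so many fold). A change was called at a Benjamini-Hochberg adjusted p under 0.005 in limma over all tested probes, and adjusted p-values are from limma throughout.

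As background, a typical E2F binds DNA as a dimer with TFDP1 or TFDP2 and is held in check by the RB family of pocket proteins until cyclin-dependent kinases release it. E2F1, E2F2 and E2F3 are activators. E2F4 and E2F5 repress cell cycle genes in resting cells together with the pocket proteins p107 and p130. E2F6 represses through polycomb complexes, and the atypical E2F7 and E2F8 bind DNA without a TFDP partner, are induced in S phase and repress E2F targets in turn. In blood formation E2F2, E2F4 and TFDP2 are known for their part in the last divisions and the maturation of red cell precursors.

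Probe sequences are shown for the 3 genes in which the place of the probe matters for reading the values. For TFDP2 and E2F2, the capitals mark the stop codon that closes the open reading frame, so these probes read the end of the coding sequence. The TFDP2 probe A_01_P1759026 lies at chr2:145899511-145899570 and the E2F2 probe A_01_P1764541 at chr1:26111753-26111812 on the minus strand, in the rheMac2 coordinates of the array design.
TFDP2 A_01_P1759026: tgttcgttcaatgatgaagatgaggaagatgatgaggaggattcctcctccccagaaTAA
E2F2 A_01_P1764541: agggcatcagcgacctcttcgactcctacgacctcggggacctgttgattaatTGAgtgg

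For TFDP1, the probes A_01_P1715366 and A_01_P1686085 overlap, so they are not independent readings of the gene. The other TFDP1 probes read separate stretches of the transcript and are shown for that reason, with no part in capitals. A_01_P1699411 lies upstream of the pair (its match is split and spans chr17:93702996-93722341) and A_01_P1676521 downstream (chr17:93725639-93725698).
TFDP1 A_01_P1699411: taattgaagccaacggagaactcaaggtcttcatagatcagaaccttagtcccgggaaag
TFDP1 A_01_P1676521: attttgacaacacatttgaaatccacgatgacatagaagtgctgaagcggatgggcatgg

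The arrays were scanned in 2 sessions, and this touches the comparisons unequally. Session 1 held 6 pre-irradiation and 6 day 7 arrays, and session 2 held 1 pre-irradiation array (animal 5), all 4 day 3 and all 6 day 5 arrays and 1 day 7 array (animal 5). The comparison of day 7 with pre-irradiation therefore has a value within session 1, whereas those of days 3 and 5 can be adjusted for the session only through the single pre-irradiation array of animal 5. With the slide as a term, none of the 4 calls of day 3 held (adjusted p from 0.028 to 0.124), with log2 changes of -1.79 for E2F2, -3.30 for E2F5 and -4.39 and -4.32 for TFDP2, against -1.86, -2.92, -4.26 and -3.88 without that term. The scanner found 49.6 to 53.1% of all probes well above background on the pre-irradiation arrays, and between 53.9 and 57.6%, 51.0 and 61.2%, and 48.3 and 60.9% on those of days 3, 5 and 7.

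Of the 15 probes, 14 were well above background on at least 4 arrays and were tested, and the 15th, the E2F7 probe A_01_P1681871, was well above background on 2 arrays. At day 3, 4 of the 14 were called, all lower and from 3 genes, where 13.5% of all tested probes were called (5.44% higher and 8.02% lower). At day 5, 6 were called in 5 genes, 1 higher and 5 lower, against 16.7% of all tested probes (7.16% higher and 9.58% lower). At day 7, 8 were called in 5 genes, 5 higher and 3 lower, against 10.9% of all tested probes (3.6% higher and 7.27% lower). Of the 5 higher calls of day 7, 3 are of dim TFDP1 probes. These reached the filter of 4 arrays only through their day 7 arrays, so that the filter partly fixed this count. The E2F7 probe A_01_P008012 was well above background on no pre-irradiation array and was tested only because of its arrays after irradiation. The filter thus partly fixed its higher calls of days 5 and 7 too. The median log2 change of the 14 probes was -0.68, 0.05 and 0.38 at the 3 days, and that of all tested probes was 0.02 at each. TFDP2 and E2F5 were lower at each day, E2F2 was lower at days 3 and 5, and E2F4 was lower at day 5. E2F7 was higher at days 5 and 7 and E2F8 at day 7. TFDP1 was called higher at day 7 only in its 3 dim probes. Its probe A_01_P1676521, well above background on all 24 arrays, was not called (adjusted p = 0.048).

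**Figure D1:**
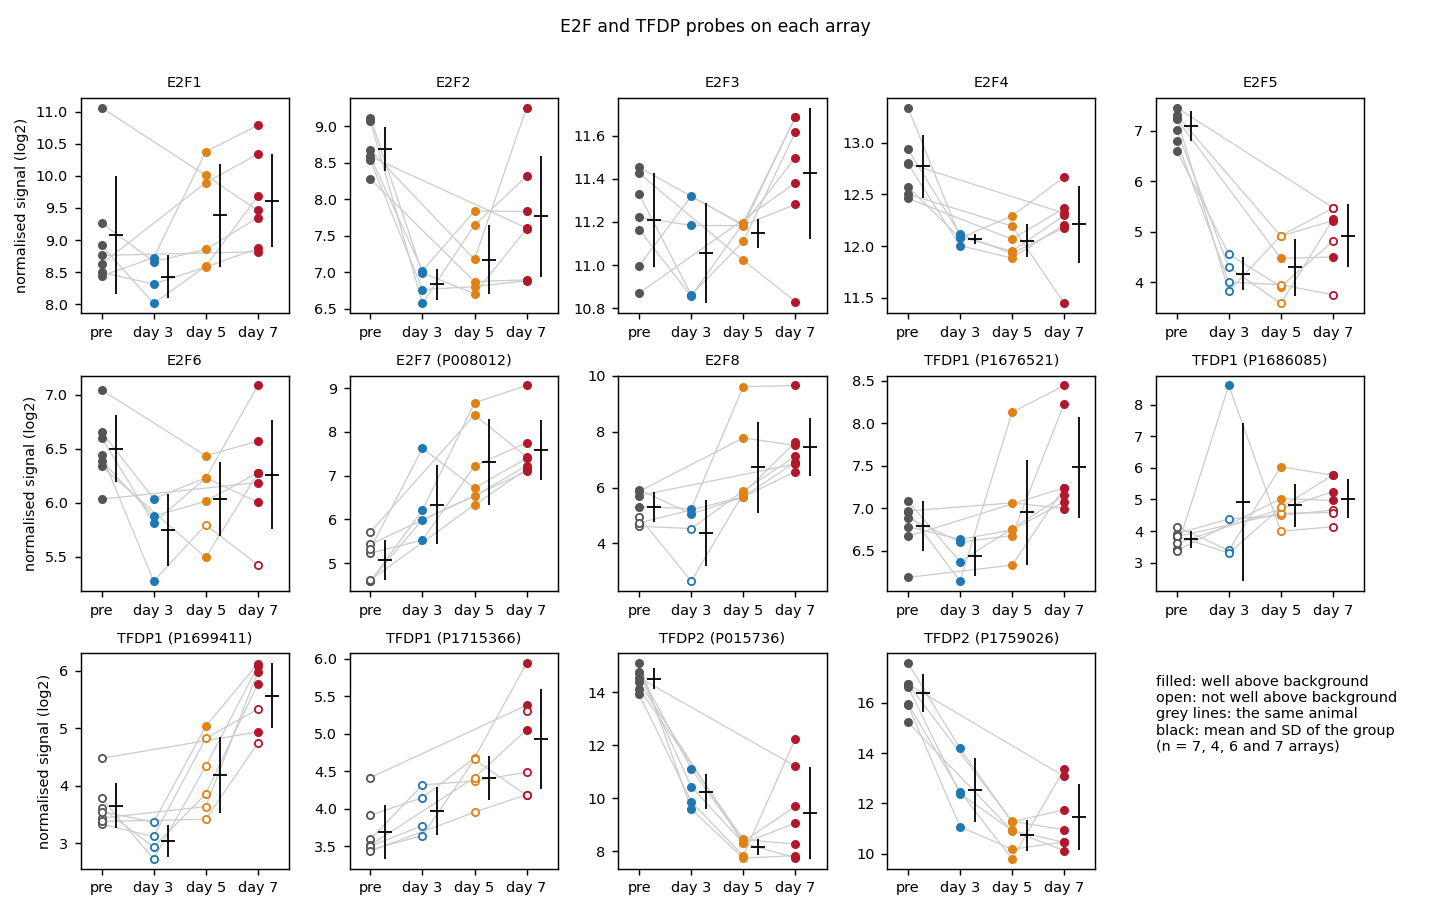
Normalised signal (log2) of the 14 tested probes on each array, by group; each panel has its own axis, filled points were well above background, open points were not, grey lines join the arrays of 1 animal and black marks are the mean and SD of the group. TFDP2 and E2F5 sit below all pre-irradiation arrays at every day, and E2F7 and E2F8 sit above them on all 7 arrays at day 7.

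**Figure D2:**
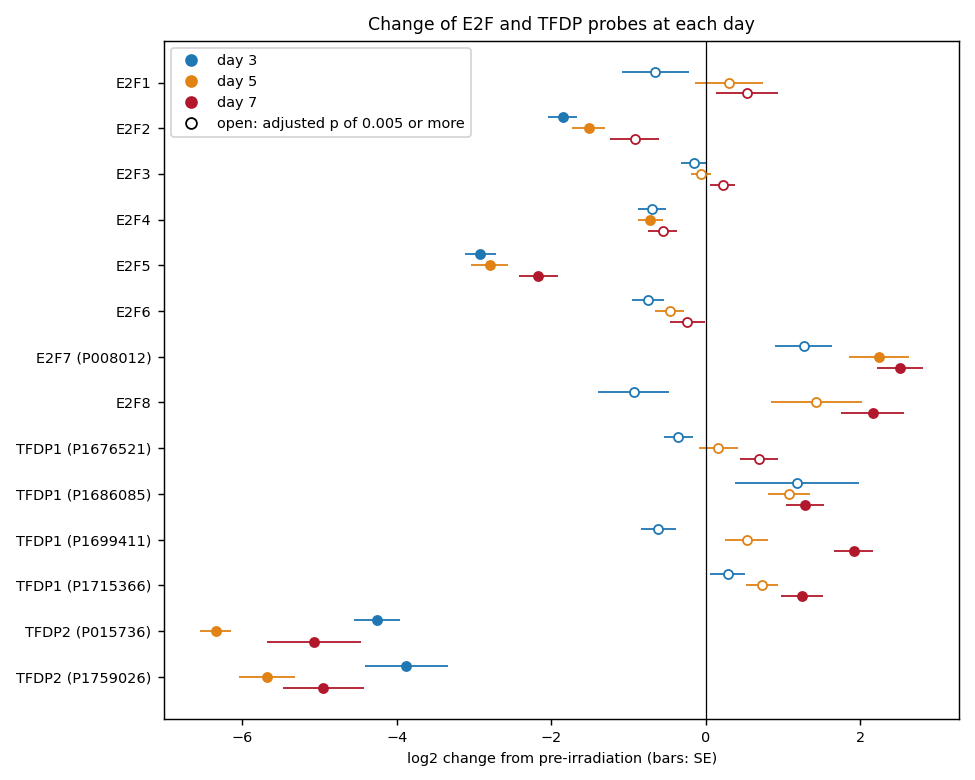
Log2 change of each tested probe from pre-irradiation at days 3, 5 and 7 with its SE; filled points have an adjusted p under 0.005. The changes run from -6.34 for a TFDP2 probe at day 5 to 2.52 for E2F7 at day 7.

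The activators differed from one another. E2F2, which drives S phase entry and is abundant in late red cell precursors, fell at days 3 and 5. Its signal was 556, 371, 409, 536, 385, 310 and 384 in animals 1 to 7 before irradiation and 127, 109, 95.2 and 130 in animals 1, 2, 4 and 7 at day 3. At day 5 it was 104, 112, 145, 200, 117 and 229 in animals 1, 2, 3, 4, 6 and 7, and at day 7 it was 193, 118, 611, 318, 195, 119 and 228. Every day 3 and day 5 array lay below every pre-irradiation array, whereas at day 7 animal 3 stood above all of them and 5 of 7 arrays stood below. Groups did not overlap in 21% of all tested probes at day 3 and in 14.3% at day 5. The log2 change was -1.86 (SE 0.189, adjusted p = 8.28e-05) at day 3, -1.52 (SE 0.215, adjusted p = 1.49e-04) at day 5 and -0.92 (SE 0.313, adjusted p = 0.0396) at day 7, the last of which did not pass. With the scan session as a term the changes were -1.75 (adjusted p = 0.0257) at day 3 and -1.41 (adjusted p = 0.0697) at day 5, so neither call held, and with normexp background correction they were -0.91 (adjusted p = 0.0588) and -0.45 (adjusted p = 0.187).

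E2F1, the founding activator, which also drives apoptosis genes, was not called at any day. Its signal ranged from 348 to 2134 before irradiation (median 433), where animal 6 stood at 2134 and the other 6 at 615 or lower. It was 258, 318, 423 and 406 at day 3, between 382 and 1326 (median 706) at day 5 and between 451 and 1766 (median 705) at day 7. The log2 changes were -0.65 (adjusted p = 0.259), 0.30 (adjusted p = 0.626) and 0.53 (adjusted p = 0.352) at days 3, 5 and 7. Without animal 6 the day 3 change was -0.32 (adjusted p = 0.261) and the day 7 change was 0.89 (adjusted p = 0.0589). E2F3, the activator that sustains proliferation in many cell types, had signals between 1872 and 2805 on the pre-irradiation arrays, and between 1853 and 2555, 2079 and 2345, and 1820 and 3299 on those of days 3, 5 and 7. Its log2 changes were -0.15, -0.06 and 0.22 with adjusted p-values of 0.496, 0.742 and 0.341.

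Both repressors of resting cells had lower means at each day. E2F5 had signals of 97.3, 152, 158, 129, 175, 150 and 111 before irradiation, on all 7 arrays well above background. At day 3 it was 23.5, 14.2, 19.7 and 16.1, on no array well above background. It was between 12 and 30.4 at day 5 (median 18.9, well above background on 2 of 6 arrays) and 13.5 to 44.6 at day 7 (median 37.3, on 4 of 7). No array after irradiation reached the lowest pre-irradiation array, where groups did not overlap in 21%, 14.3% and 8.49% of all tested probes at days 3, 5 and 7. E2F5 was at least 6.61-fold lower at day 3 (adjusted p = 8.13e-06). That bound takes, on each day 3 array, the higher of the E2F5 signal and the array's lowest signal well above background. The log2 change of E2F5 was -2.80 (SE 0.238, adjusted p = 2.2e-06) at day 5 and -2.17 (SE 0.255, adjusted p = 3.71e-05) at day 7. With normexp background correction, which adds an offset of 50 to every signal, the changes were -0.70, -0.29 and -0.79 and none passed (adjusted p = 0.328, 0.602 and 0.262).

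E2F4, the most abundant E2F of resting cells in many tissues, had signals of 10339, 7831, 5798, 6086, 7123, 5639 and 7109 before irradiation. It stood at 4360, 4440, 4320 and 4109 at day 3, at 3782 to 5020 at day 5 (median 4126) and at 2792 to 6503 at day 7 (median 5033). The 4 arrays of day 3 and the 6 of day 5 lay below all pre-irradiation arrays, where the groups did not overlap in 21% and 14.3% of all tested probes, and in 8.49% at day 7. The log2 change was -0.70 (adjusted p = 0.0109) at day 3, -0.72 (SE 0.158, adjusted p = 0.0032) at day 5 and -0.56 (adjusted p = 0.041) at day 7. The day 5 call was lost without any 1 of the 7 (adjusted p from 0.00512 to 0.0175), with animal as a block (-0.71, adjusted p = 0.0176) and with the scan session as a term (-0.74, adjusted p = 0.183).

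E2F6, the polycomb-linked repressor, had signals of 65.5 to 132 before irradiation and 38.7 to 65.6, 45.0 to 86.5 and 43.0 to 136 at days 3, 5 and 7. Its log2 changes of -0.75 (adjusted p = 0.0162), -0.47 (adjusted p = 0.0677) and -0.24 (adjusted p = 0.456) were not called. All 4 animals at day 3 and all 6 at day 5 were below their own pre-irradiation array, and 5 of 7 were at day 7.

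The atypical E2Fs, E2F7 and E2F8, which carry a pair of DNA-binding domains each and repress E2F targets late in S phase, were higher at day 7. E2F7 (A_01_P008012) had signals of 37.5, 24.1, 52.3, 24, 43.1, 24.5 and 40.1 before irradiation, on no array well above background. After irradiation every array was well above background: 46.0, 63.7, 73.8 and 197 at day 3, 149, 92.7, 335, 406, 80.6 and 105 at day 5, and 216, 150, 173, 534, 137, 142 and 168 at day 7. All day 5 and day 7 arrays lay above all pre-irradiation arrays, and 3 of 4 did at day 3. Groups did not overlap in 14.3% of all tested probes at day 5 and in 8.49% at day 7. E2F7 was at least 4.73-fold higher at day 5 (adjusted p = 6.01e-04) and at least 5.73-fold higher at day 7 (adjusted p = 3.76e-05), while the difference at day 3, at least 2.41-fold, was not called (adjusted p = 0.0201). For E2F7 these bounds equal the folds of the measured signals. The probe was tested only because of its arrays after irradiation, so these p-values are not independent of its signal there. The day 7 call held within scan session 1 (adjusted p = 1.83e-04), and that of day 5 was lost with the session as a term (adjusted p = 0.169). With normexp background correction neither day passed (adjusted p = 0.0597 and 0.159). The second E2F7 probe, A_01_P1681871, ranged from 4.18 to 100 over the 24 arrays and was well above background in animal 2 before irradiation and in animal 7 at day 7.

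E2F8 had signals of 30.7, 24.5, 58.3, 40.0, 52.3, 26.6 and 60.8 before irradiation, 4 of them well above background, and of 6.26, 23.1, 37.8 and 33.3 at day 3, 2 of them well above background. At day 5 it was 55.5, 59.1, 220, 783, 50.9 and 50.7, and at day 7 it was 197, 139, 182, 806, 115, 120 and 95.2, on all arrays well above background. Animal 4 stood highest at both days, with 783 and 806, and the 7 arrays of day 7 lay above all pre-irradiation and all day 3 arrays. Day 7 did not overlap with pre-irradiation in 8.49% of all tested probes and with day 3 in 11.8%. The log2 change was -0.93 (adjusted p = 0.131), 1.43 (adjusted p = 0.0715) and 2.16 (SE 0.407, adjusted p = 1.34e-03) at days 3, 5 and 7. The day 7 call held within scan session 1 (2.33, adjusted p = 3.12e-03) and was lost without animal 1 (2.07, adjusted p = 0.00825), without animal 2 (2.10, adjusted p = 0.00592) and with normexp background correction (0.82, adjusted p = 0.156).

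Of the DNA-binding partners, TFDP2 was lower at each day, while TFDP1 was not called at days 3 and 5 and was called at day 7 in 3 of its 4 probes, which were tested only because of their day 7 signal. TFDP2, the partner known from red cell maturation, was lower on every array after irradiation. At A_01_P015736 (chr2:145900458-145900517) the signal was 34743, 27484, 17878, 15353, 23810, 21356 and 27098 before irradiation. It was 767, 2209, 931 and 1380 at day 3, 213, 329, 346, 226, 313 and 315 at day 5, and 227, 824, 307, 4829, 2355, 533 and 215 at day 7. Every array after irradiation lay below every pre-irradiation array, and animals 4 and 5 were the highest of day 7. Groups did not overlap in 21%, 14.3% and 8.49% of all tested probes at days 3, 5 and 7. The signal was 19.1-fold lower at day 3 (log2 -4.26, SE 0.3, adjusted p = 8.13e-06), 81.3-fold lower at day 5 (log2 -6.34, SE 0.202, adjusted p = 6.58e-10) and 33.6-fold lower at day 7 (log2 -5.07, SE 0.606, adjusted p = 4.13e-05). All 6 arrays of day 5 were below the 4 of day 3, a log2 difference of -2.09 that did not pass (adjusted p = 0.0234). These 2 days did not overlap in 3.04% of all tested probes.

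The TFDP2 probe at the stop codon, A_01_P1759026, gave signals of 38395 to 195271 before irradiation (median 102708), of 2148, 18654, 5668 and 5341 at day 3, of 883 to 2494 at day 5 (median 1934) and of 1109 to 10484 at day 7 (median 1980). It was 14.7-fold lower at day 3 (log2 -3.88, SE 0.539, adjusted p = 4.74e-04), 51.2-fold lower at day 5 (log2 -5.68, SE 0.359, adjusted p = 1.28e-07) and 30.9-fold lower at day 7 (log2 -4.95, SE 0.521, adjusted p = 1.66e-05). No spot of either probe was saturated. Both probes passed at each day with animal as a block and with normexp background correction. With the scan session as a term they passed at days 5 and 7, and at day 3 the changes were -4.29 (adjusted p = 0.00577) and -4.22 (adjusted p = 0.0484).

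TFDP1, the more widely expressed partner, had higher signals at day 7 in its 3 dim probes. The upstream probe A_01_P1699411 was not well above background on any array before irradiation or at day 3, with signals of 12.2, 10.1, 10.8, 11.7, 22.3, 10.4 and 13.7 and of 7.64, 8.67, 10.3 and 6.61. It had a median of 17.3 and a highest signal of 32.7 at day 5 and stood at 54.7, 40.3, 63.1, 69.7, 30.6, 26.7 and 67.4 at day 7, where 5 of 7 arrays were well above background and all 7 were above every pre-irradiation and day 3 array. This was at least 3.48-fold higher than before irradiation (adjusted p = 8.97e-05), and it also passed within scan session 1 (adjusted p = 9.77e-05). All 3 dim probes were tested only because of their day 7 arrays. Their p-values at day 7, also within session 1, are therefore not independent of that signal.

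The overlapping pair moved less. A_01_P1686085 was at least 2.07-fold higher at day 7 (adjusted p = 1.6e-03) and A_01_P1715366 at least 2.17-fold higher (adjusted p = 4.01e-03), with 4 and 3 of 7 arrays well above background and none before irradiation. At day 3 the first of these stood at 390 in animal 2 and at 9.84 to 20.9 in the other 3, and its log2 change there was 1.18 with animal 2 and -0.09 without it. The call of A_01_P1715366 was lost without any 1 of the 7 animals (adjusted p from 0.00519 to 0.0172) and that of A_01_P1686085 without animal 5, 6 or 7 (adjusted p from 0.0066 to 0.00847). The downstream probe A_01_P1676521, well above background on all 24 arrays, had signals of 72.7 to 135 before irradiation and of 128 to 348 at day 7, with all 7 animals above their own pre-irradiation array. Its log2 change of 0.69 at day 7 (SE 0.246, adjusted p = 0.048) was not called, so the probes of TFDP1 disagree on the call. With normexp background correction none of the 4 probes passed at day 7. The share of all probes well above background on 5 of 7 day 7 arrays was above that of every pre-irradiation array, and its part in these dim signals was not tested.

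Between the days, 0 of the 14 probes were called from day 3 to day 5 (5 at an unadjusted p under 0.05 in limma), where 0.0184% of all tested probes were called, and 0 from day 5 to day 7 (1 at an unadjusted p under 0.05), where 0.00368% were. From day 3 to day 7, 1 was called, against 1.28% of all tested probes (0.317% higher and 0.962% lower). TFDP1 at A_01_P1699411 was at least 3.88-fold higher at day 7 (adjusted p = 1.32e-03), a probe tested only because of its day 7 arrays. That call was lost with animal as a block (adjusted p = 0.00641), with the scan session as a term (adjusted p = 0.406) and without animal 1, 4 or 7. E2F8 was 3.09 higher on the log2 scale at day 7 than at day 3 (SE 0.603, adjusted p = 8.25e-03), E2F1 1.19 (adjusted p = 0.0455) and TFDP1 at A_01_P1676521 1.04 (adjusted p = 0.0381), and none of these passed. In each of the 3 all day 7 arrays lay above all day 3 arrays, where groups did not overlap in 11.8% of all tested probes (3.04% for day 5 against day 3 and 2.25% for day 7 against day 5).

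The genes that E2F factors control were read from a list of 40 targets of the G1/S transition, replication and nucleotide supply, of which 34 were tested. At day 3, 1 was higher and 2 were lower (median log2 change -0.42), shares no larger than the 5.44% and 8.02% over all tested probes. TYMS, the thymidylate synthase, was 2.63 higher on the log2 scale (adjusted p = 8.23e-06), while GINS1 of the replicative helicase fell by 1.19 (adjusted p = 3.14e-03) and CCNE1, the cyclin of G1/S entry, fell by 1.03 (adjusted p = 1.86e-03). With animal as a block both decreases were lost (adjusted p = 0.0152 for GINS1 and 0.0162 for CCNE1), and without animal 1, 2, 4 or 7 in turn 1 target was called. At day 5, TYMS was the 1 target called (log2 change 2.25, adjusted p = 5.03e-05), where 16.7% of all tested probes were called, and the list's median was 0.48. At day 7, 11 targets were higher and 0 lower (3.6% of all tested probes were called higher), with a median of 0.92 and a positive change in 32 of 34. UHRF1, which keeps DNA methylation through replication, rose by 2.33 (adjusted p = 7.12e-04), and TYMS by 1.92 (adjusted p = 6.09e-05). CCNE2, a partner of CDK2 like CCNE1, was higher too (adjusted p = 5.75e-04), from no array well above background before irradiation to 6 of 7. With animal as a block 6 targets were called at day 7, within scan session 1 also 6, and 6, 7, 6, 7, 6, 8 and 6 without animals 1 to 7 in turn.

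Of 10 proliferation markers, CCNB1, the mitotic cyclin, was lower at day 3 (log2 -0.71, adjusted p = 3.83e-03, and 0.0405 with animal as a block), 1 gene of 10 beside 8.02% of all tested probes, and the list's median was -0.69. At day 5, 0 markers were called in limma (2 at an unadjusted p under 0.05) and all 10 changes were above 0. At day 7, MKI67 (2.23, adjusted p = 2.75e-03), the mitotic kinase PLK1 (1.70, adjusted p = 5.92e-04) and the topoisomerase TOP2A (1.65, adjusted p = 4.57e-03) were higher, beside 3.6% of all tested probes, and the median was 1.32. With animal as a block MKI67 (adjusted p = 0.0115) and TOP2A (adjusted p = 0.0124) did not pass. The mean log2 level of these markers, beside which E2F8 is plotted, had its 2 highest arrays in animal 4 at days 5 and 7.

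Of the 11 genes of the RB family and the MuvB core, which hold E2F targets silent or switch to mitotic genes, MYBL2 (log2 -1.21, adjusted p = 2.43e-03) and RB1 (-0.80, adjusted p = 4.26e-03) were lower at day 3, 0 were called at day 5 in limma (4 at an unadjusted p under 0.05), and FOXM1, the mitotic activator, was higher at day 7 (1.86, adjusted p = 2.04e-03). These were 2 of 11 lower at day 3 and 1 of 11 higher at day 7, beside 8.02% lower and 3.6% higher of all tested probes. None of the 3 genes passed with animal as a block (adjusted p = 0.0145, 0.0198 and 0.00588). Of 13 G1 kinases and inhibitors, 3, 3 and 5 were higher and 1 was lower at days 3, 5 and 7, where 5.44, 7.16 and 3.6% of all tested probes were higher and 8.02, 9.58 and 7.27% lower. The 1 lower gene of each day is thus near the share over all probes. The p53-induced inhibitor CDKN1A was 3.40 higher on the log2 scale at day 3 (adjusted p = 2.61e-06) and 2.01 at day 5 (adjusted p = 5.14e-06), and the inhibitor CDKN2B was 1.74, 1.57 and 1.53 higher at the 3 days. CDK4, the kinase that phosphorylates RB in G1, was lower at day 5 (log2 -2.20, adjusted p = 2.64e-04) and at day 7 (log2 -2.36, adjusted p = 1.34e-04), whereas CCNA2, the S phase cyclin, was higher at day 7 (1.53, adjusted p = 1.34e-03, and 0.0056 with animal as a block). CCND3, a D-type cyclin, was 1.17 higher at day 3 (adjusted p = 2.02e-03), and with animal as a block this and the day 3 change of CDKN2B did not pass (adjusted p = 0.0091 and 0.00831).

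Of the 9 polycomb partners of E2F6, MAX was lower at day 7 (log2 -0.84, adjusted p = 1.18e-03, and 0.007 with animal as a block), 1 gene of 9 beside 7.27% of all tested probes, and 0 were called in limma at days 3 and 5 (2 at an unadjusted p under 0.05 at each). Of 6 apoptosis genes that E2F1 can induce, 0 were called in limma at any day (3, 3 and 2 at an unadjusted p under 0.05).

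**Figure D3:**
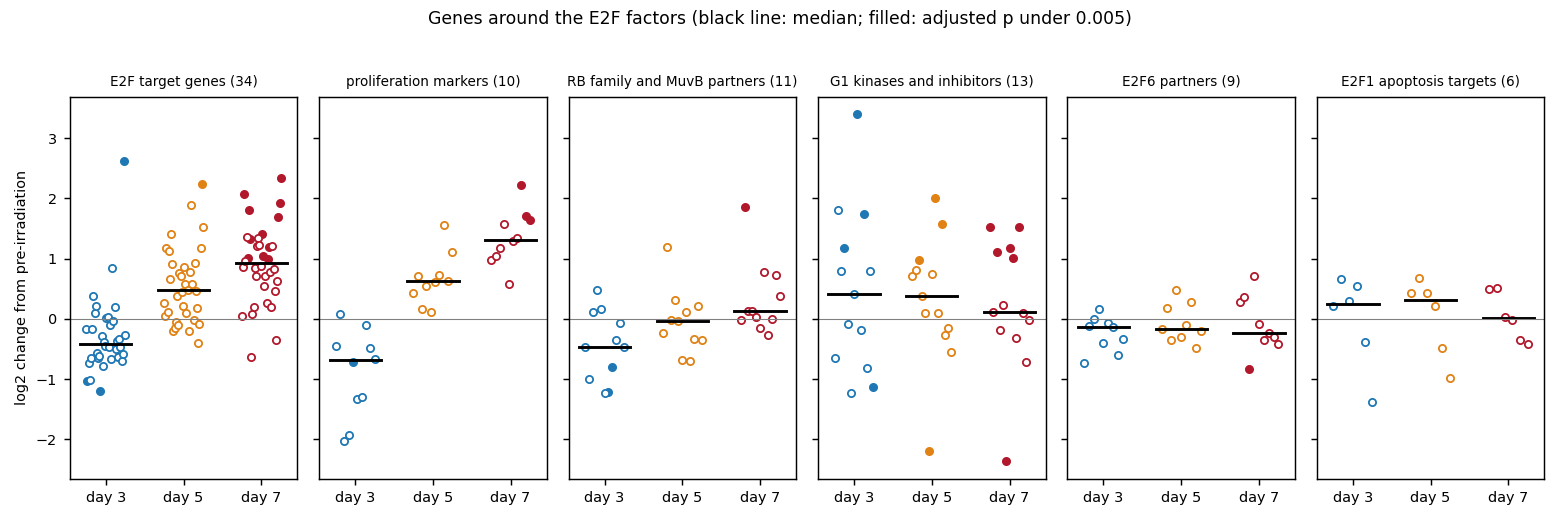
Log2 change from pre-irradiation of the genes in 6 lists around the E2F factors at days 3, 5 and 7, 1 point a gene, with the number of genes tested in brackets; filled points have an adjusted p under 0.005 and the black line is the list's median. The median of the E2F target genes runs from -0.42 at day 3 to 0.92 at day 7 and that of the proliferation markers from -0.69 to 1.32.

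Whole blood is a mixture, and in these bulk samples fewer cells of a type and less RNA per cell cannot be told apart. Most markers of 2 cell types, erythroid and B cells, were lower on the same arrays as the members that were lower. Of 13 erythroid markers 9, 12 and 12 were lower at days 3, 5 and 7 and 0 higher, with median log2 changes of -3.63, -4.74 and -4.11. Over all tested probes 8.02, 9.58 and 7.27% were lower. Their summed signal lay between 395113 and 819921 on the pre-irradiation arrays. Its range on the later arrays was 33865 to 105434 for day 3, 5085 to 14969 for day 5 and 4299 to 240345 for day 7. KLF1, the red cell transcription factor, changed by -5.28, -8.07 and -5.53 on the log2 scale, and SLC4A1, the band 3 anion exchanger, was well above background on 1 of 4, 0 of 6 and 2 of 7 arrays after irradiation and on 7 of 7 before. CA1 and DMTN were well above background on no array of days 3 and 5. TFDP2 was lowest at day 5 and highest among day 7 arrays in animals 4 and 5, and the erythroid mean followed the same arrays, with r = 0.98 over the 24 arrays for A_01_P1759026 and r = 0.87 for deviations from the 4 group means. The part of these markers in the TFDP2, E2F2 and E2F4 values was not tested. For E2F2 the correlation with the erythroid mean was 0.60 over the 24 arrays and -0.08 for such deviations, and with the mean of the B cell markers described next it was 0.73 and 0.29. For E2F4 these values were 0.78 and 0.41 with the erythroid mean and 0.74 and 0.04 with the B cell mean. With the monocyte mean they were -0.70 and -0.19 for E2F2 and -0.79 and -0.50 for E2F4, and with the T cell mean 0.59 and 0.14 for E2F2 and 0.45 and 0.16 for E2F4. The part of these cell types was not tested either.

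All 7 tested B cell markers were lower at each day, with median log2 changes of -3.53, -3.92 and -3.67. Their summed signal lay between 30022 and 41469 on the pre-irradiation arrays. Its range on the later arrays was 1567 to 4270 for day 3, 1579 to 3029 for day 5 and 2312 to 4436 for day 7. FCRLA changed by -4.13, -4.25 and -4.65 on the log2 scale and CD79B, a chain of the B cell receptor, by -4.15, -4.35 and -3.75. E2F5 was lower on the same arrays, and the part of the B cell markers in its values and in those of E2F2 and E2F4 was not tested. The deviations of E2F5 from its group means had r = 0.39 with those of the B cell mean and r = 0.48 with those of the erythroid mean over 24 arrays. Of 7 T cell markers IL7R was called lower at days 3 and 5 (log2 -1.97 and -1.25), while 4 and 2 had an unadjusted p under 0.05 in limma and all 7 changes were below 0 at both days. The T cell mean had r = 0.65 with E2F3, 0.60 with E2F6 and 0.59 with TFDP1 at A_01_P1676521 over 24 arrays. For deviations from the group means these were 0.61, 0.34 and 0.53. With the monocyte mean the same probes had r = -0.35, -0.64 and -0.34 over 24 arrays and -0.55, -0.41 and -0.77 for deviations. E2F6 also had 0.51 and 0.53 with the B cell mean, and the part of these cell types was not tested. Of the other lists, 0 NK cell markers were called in limma at any day (1, 0 and 1 at an unadjusted p under 0.05), and 1, 1 and 2 of 8 neutrophil and 2, 2 and 1 of 6 monocyte markers were higher. All 7 platelet markers were higher at day 3, 2 at day 5 and 0 at day 7 in limma (2 at an unadjusted p under 0.05). Over all tested probes, 5.44, 7.16 and 3.6% were higher and 8.02, 9.58 and 7.27% lower at days 3, 5 and 7. A count of 1 in a list of 6 to 8 markers is near these shares.

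**Figure D4:**
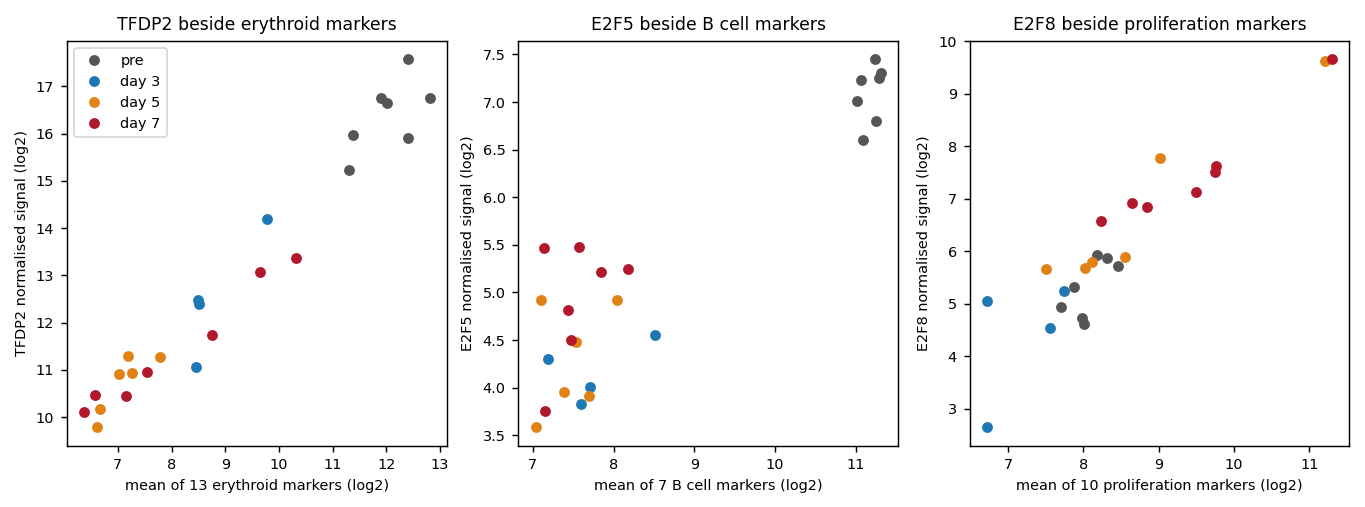
Normalised signal (log2) of TFDP2 (A_01_P1759026), E2F5 and E2F8 on each of 24 arrays against the mean log2 level of 13 erythroid, 7 B cell and 10 proliferation markers, coloured by group. TFDP2 and the erythroid mean vary together within and between groups, E2F5 and the B cell mean separate pre-irradiation from all other arrays, and E2F8 is highest in animal 4 at days 5 and 7, where the proliferation mean is highest.

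The 5 genes with the pattern most like each member that was called in its brightest probe were taken by Pearson's r over the 24 arrays among 10893 genes. For TFDP2 these included SOX6 (r = 0.969), AHSP, ACSL6 and ICAM4 (r = 0.963), with r of 0.749 to 0.883 for deviations from the group means. For E2F8 they were FOXM1 (r = 0.980), KIF4A, TOP2A, SPAG5 and MELK (r = 0.960), with 0.919 to 0.956 for such deviations and 0.926 to 0.965 without the 2 arrays farthest from the median of E2F8. For E2F7 they were RAD54L (r = 0.903), CENPU, CDC25C, GTF3C3 and KNTC1. For E2F5 they were GRAP (r = 0.945), RPL24, BLNK, FCRL1 and VPREB3, with 0.355 to 0.589 for deviations from the group means. For E2F4 they were CIZ1 (r = 0.907), RNF10, UBFD1, UBE2O and RIOK3, and for E2F2 they were TMEM160 (r = 0.883), MRPL23, SOD1, MRPL11 and C15H9orf40. The arrays share groups, sessions and cell composition, so these values describe likeness only.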

How the data were processed

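Whole blood RNA of 24 samples was read on one-colour Agilent rhesus arrays. The labels name a rhesus 4X44K design, the study's methods a human one, and the probe names in the files are those of the rhesus design. The deposited scanner files hold intensity values per spot, from which the authors' Feature Extraction software (10.7 in the processing notes, 12.0.2.2 in the file headers) had subtracted background. The authors' deposited series matrix holds log2 values after their own normalization and was used as an alternative.

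Processed intensities were put on the log2 scale, and each array was shifted by the median difference to the median array (pre-irradiation animal 2), as in the study's methods. Control spots and spots marked as outliers were left out, and repeated spots were averaged. The 27138 probes well above background on at least 4 arrays were tested with limma 3.58.1 in R 4.3.3 (lmFit and eBayes, two-sided, Benjamini-Hochberg adjusted p under 0.005), in separate fits for each day with the 7 pre-irradiation arrays, or for each pair of days. Where no array of the dimmer group was well above background, a fold is given as a bound. On each array of that group it uses the measured signal or the array's lowest signal well above background, whichever is higher. Where the measured signals are the higher ones, the bound equals the fold of the measured signals. The limma code was tested on simulated data. Arrays have no read depth, and their number limits the precision. No pair of arrays looked like a duplicate (highest correlation 0.978).

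Replicate numbers name animals. Same-numbered arrays deviated together in each comparison (correlations from 0.129 to 0.651), so that animal as a block is given where it changes a call. The text names every member, up to 3 called genes of largest change per list and comparison, and the 5 genes most like a changed member, of which 1 is not reported here. FCRLA, CD79B, SLC4A1, CA1, DMTN and IL7R illustrate marker lists. The members and lists were chosen with earlier results of these data known. Alternatives were other normalizations, filters, background correction, blocks, fits and left-out animals.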

Additional observations from a re-analysis of the deposited data

Results flagged for a closer look

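Over 56 sets of 1 probe in 1 group, 5 held an array far from the others by Dixon's test, which chance gives in about 1 of 20 such sets. In log2 signal these were E2F1 before irradiation in animal 6 (11.06, the nearest array at 9.27), E2F4 at day 7 in animal 3 (11.45, nearest 12.18), E2F7 at day 7 in animal 4 (9.06, nearest 7.75), E2F8 at day 7 in animal 4 (9.66, nearest 7.62) and TFDP1 at A_01_P1699411 before irradiation in animal 5 (4.48, nearest 3.78). The measured signals of TFDP1 at A_01_P1699411 also differed between day 7 and day 3, by 2.53 on the log2 scale (adjusted p = 1.32e-03 in limma). No day 3 array was well above background, so that only the bound of at least 3.88-fold holds, and the call was lost with animal as a block (adjusted p = 0.00641) and with the scan session as a term (adjusted p = 0.406).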

How the results depend on the processing

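Counts of members are of probes. With normexp background correction 2 members, both of TFDP2, stayed called at each day and 0 between days 3 and 7, with 1, 0 and 1 E2F targets at days 3, 5 and 7. The stricter filter left 5 members at day 7 and 0 between days 3 and 7. One fit over all groups gave 2 members between days 3 and 7 and 1, 3 and 6 targets at the 3 days. Without a filter 1 target was called at day 3 and 3 at day 5. The replicate block gave 0 members between days 3 and 7 and 1 target at day 3 and 6 at day 7, and it changed no member call other than those given above. With the slide as a block 0 members and 0 targets were called at day 3. The session block gave 1 member at day 3 (E2F5), 3 at day 5 (E2F5 and both TFDP2 probes) and 0 targets at both, and 6 targets were called at day 7 within session 1. Between days 3 and 7, the slide block, the session block and the authors' matrix gave 0 members. Leaving out 1 animal gave 0 to 1 members between days 3 and 7 (0 without animal 1, 4 or 7), 1 to 3 targets at day 3 and 6 to 8 at day 7.

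Changes that were not called turned sign in 17 instances. E2F3 was 0.011 without a filter, 0.22 with the slide and 0.18 with the session as a block at day 3, and 0.021 with quantile normalization, 0.23 without a filter and 0.28 with the session at day 5. TFDP1 at A_01_P1686085 was -0.27 with the slide at day 3, and -0.095 to 1.76 without 1 animal in turn. TFDP1 at A_01_P1715366 was -0.45 with the slide and -0.44 with the session at day 3, and -0.00080 with the session at day 5. TFDP1 at A_01_P1699411 was -0.29 with the session at day 5 and, from day 5 to day 7, -0.43 with normexp. Without 1 animal in turn at day 5, TFDP1 at A_01_P1676521 was -0.048 to 0.25 and E2F1 was -0.0032 to 0.51, the lowest without animal 4 in both. E2F6 was 0.28 with normexp at day 5 and 0.031 without a filter at day 7. The cause of these moves was not tested. Of the remaining member values 714 kept their side of the threshold, 60 no longer passed and 3 newly passed. The median of all probes shifted by -0.104 at day 3 without a filter and by 0.140 at day 5 with normexp. Over all tested probes 3653, 4543 and 2951 were called at days 3, 5 and 7, and 139, 239 and 315 with normexp. The session block gave 37 at day 3 and 383 at day 5, the slide block 0 and the replicate block 751 at day 3. Leaving out 1 animal brought the counts down to as few as 863 at day 3 (animal 4), 2713 at day 5 (animal 1) and 1656 at day 7 (animal 1). The slide block at day 5, the slide block between days 5 and 7 and the session block between days 3 and 5 could not be fitted.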
